A study of Mus musculus with 1790 samples.

Results

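The genes described here are 10 components of the neuronal cytoskeleton, which were Tuba1a, Tubb2b, Tubb3, Stmn1, Stmn2, Map1b, Map2, Mapt, Nefl and Nefm. They were taken as a list by name, out of 49915 gene names found across the 7 count tables of the series. No cut on a measured value was used, but earlier results of these data were known when the list was chosen. All 10 had an entry in 6 of the tables, and 8 had one in the P15 table, which gave no entry for Tuba1a or Tubb3. A further list of 81 cytoskeleton genes was kept beside them for counts. The genes were followed through single mouse interneurons and their precursors from the embryo to P30.

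Microtubules are polymers of alpha- and beta-tubulin that fill growing neurites and serve as tracks for transport. Stathmins bind free tubulin dimers and keep the polymer dynamic, whereas microtubule-associated proteins bundle and stabilise it, with Map2 sorted to dendrites and Mapt, the tau gene, to axons. Neurofilaments are intermediate filaments that are added later, and they set the calibre of large axons. In cortical interneurons this machinery carries both the long tangential migration out of the ventral telencephalon and the later growth of axon and dendrites. Neurogliaform cells (NGCs) are upper-layer interneurons known for short dendrites and a very dense local axon.

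Cells of the embryonic preoptic area (POA) and caudal ganglionic eminence (CGE), the ventral regions where these interneurons are born, came from wild-type E14.5 brains without treatment and were run as 1 droplet library each, with 2106 POA and 4115 CGE cells. A further 352 POA cells of wild-type E14.5 embryos were sorted as FlashTag+, after uptake of a fluorescent dye by dividing cells that touch the ventricle, 2 h after its injection there. From the mouse line Hmx3-Cre::Htr3a-GFP with a Cre-dependent tdTOM reporter, 418 tdTOM+/GFP+ cells were sorted from the POA at E14.5, and GFP+ cells with or without tdTOM were sorted from the upper layers of somatosensory cortex at P15 (390 cells) and P30 (581 cells). These sorted cells were captured on C1 microfluidic chips. Both Hmx3-Cre and Htr3a-GFP are transgenes, so that tdTOM reports the past activity of the Hmx3 driver and GFP the present activity of the Htr3a driver, and the postnatal cells were pooled over several brains. Finally, 47 tdTOM+/GFP+ cortical cells recorded with a patch pipette (patch-seq) carried the label of either of the NGC subtypes, Dock5 (20 cells, P15 to P25) or Lsp1 (27 cells, P14 to P23), and these came from all cortical layers. The study's subtype labels rest on the same expression values, and many cells were left inconclusive. Core NGCs, 69 at P15 and 111 at P30, had tdTOM and a Dock5 or Lsp1 label, and core non-NGCs were tdTOM- cells of any other assigned subtype, 89 at P15 and 96 at P30.

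No label names an animal, so each collection counted as 1 sample and no difference below carries a test. The counts of a group's cells were added up and scaled to 1000000 (CPM), with an exact Poisson 95% interval, which covers counting error only. Differences are log2 ratios after adding 10 CPM to both groups, and a gene was called at least 2-fold higher or lower past 1 or -1 on this scale if it reached 50 CPM in the higher group. For the chips the lowest and highest CPM over 4 blocks of 10 chip rows are given as a measure of spread within a sample. Median counts per cell ran from 3911 to 8940 in the droplet groups, from 175901 to 374561 on the chips, and were 378451 in Dock5 and 1037400 in Lsp1 patch-seq cells. The 2 droplet libraries shared 12 cell barcodes. Of 7 genes that mark the POA and medial regions, 6 had a higher CPM in the POA library, among them Dbx1 (64.1 against 0.18 CPM) and Hmx3 (16.7 against 0.18 CPM), and Lhx6 was higher in the CGE library (56.0 against 75.2 CPM). All 6 CGE genes tested were higher in the CGE library, with Htr3a at 85.3 CPM in the POA and 261 CPM in the CGE. Both libraries hold the number of cells that the study kept after quality control. The CGE number is above, and the POA number below, the one its methods give as recovered. GABAergic markers (Gad1, Gad2, Slc32a1, Dlx5 and Dlx6) were present in every group (5 of 5 genes, or all 4 with an entry at P15). Levels are compared for each gene with itself between groups, since the tables do not measure genes per length. Tubulin genes are close in sequence, and reads that fit several of them are not assigned to one, so that their levels are less certain than those of the other members.

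In GENCODE annotation on GRCm38, Tuba1a lies on chromosome 15, Tubb2b and Map1b on 13, Tubb3 on 8, Stmn1 on 4, Stmn2 on 3, Map2 on 1 and Mapt on 11. Nefl (68083863 to 68089095, plus strand) and Nefm (68082590 to 68124846, minus strand) lie on chromosome 14 and overlap as annotated, on opposite strands. RefSeq promoter sequence (GRCm38.p6, 250 bases before to 50 after the transcription start) was at hand for 4 of the 10 members. These 4 are shown because only they had an entry, with capitals marking the TATAA and GC box (GGGCGG) letters found on either strand. They lie at chr15:98953452-98953751 (Tuba1a, minus strand), chr8:123411303-123411602 (Tubb3, plus), chr13:99516553-99516852 (Map1b, minus) and chr1:66175079-66175378 (Map2, plus).
Tuba1a: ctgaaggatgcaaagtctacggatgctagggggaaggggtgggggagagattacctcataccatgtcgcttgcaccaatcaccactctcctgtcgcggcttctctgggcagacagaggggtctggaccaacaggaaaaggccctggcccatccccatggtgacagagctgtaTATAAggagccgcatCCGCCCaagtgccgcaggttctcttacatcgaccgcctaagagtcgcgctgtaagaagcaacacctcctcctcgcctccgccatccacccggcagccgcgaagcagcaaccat
Tubb3: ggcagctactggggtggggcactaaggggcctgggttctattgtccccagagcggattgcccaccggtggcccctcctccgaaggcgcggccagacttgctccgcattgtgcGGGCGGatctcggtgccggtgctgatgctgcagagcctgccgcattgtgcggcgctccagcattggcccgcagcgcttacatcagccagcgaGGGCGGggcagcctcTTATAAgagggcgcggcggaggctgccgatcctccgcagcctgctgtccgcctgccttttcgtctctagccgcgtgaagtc
Map1b: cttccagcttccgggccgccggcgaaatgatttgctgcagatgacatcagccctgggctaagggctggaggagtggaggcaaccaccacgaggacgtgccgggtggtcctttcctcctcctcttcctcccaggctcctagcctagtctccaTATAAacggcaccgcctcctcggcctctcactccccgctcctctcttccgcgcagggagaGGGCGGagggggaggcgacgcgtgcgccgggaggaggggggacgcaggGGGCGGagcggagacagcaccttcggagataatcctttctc
Map2: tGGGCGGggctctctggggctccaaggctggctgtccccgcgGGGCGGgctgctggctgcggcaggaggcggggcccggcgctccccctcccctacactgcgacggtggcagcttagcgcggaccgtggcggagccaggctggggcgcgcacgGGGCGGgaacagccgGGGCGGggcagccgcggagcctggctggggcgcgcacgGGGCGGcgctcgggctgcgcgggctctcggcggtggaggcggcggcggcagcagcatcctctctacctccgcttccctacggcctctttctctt
TATAA occurred 78 bases before the start in Tuba1a, 31 and 30 bases before it in Tubb3 (the same letters read on both strands) and 99 bases before it in Map1b, and it was not in the Map2 window. The GC box occurred once in Tuba1a, in 2 places each in Tubb3 and Map1b and in 5 places in Map2. Among 32851 RefSeq promoters of the same length, 24.9% held TATAA and 35.7% the GC box on either strand. On the gene's own strand alone, 3.52% held TATAA between 16 and 40 bases before the start, as Tubb3 did.

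Along the axis from progenitor to post-mitotic neuron, nearly all of the 10 genes were higher at the neuronal end in both embryonic regions. Droplet cells were ordered by Dcx, which marks migrating neurons, minus Nes, which marks radial glial progenitors, and cut into 6 bins with bin 1 richest in Nes and bin 6 richest in Dcx. In the POA, 9 of the 10 members were at least 2-fold higher in bin 6 (485 cells) than in bin 1 (169 cells), against 10.9% of all 4090 genes at 50 CPM, and the median log2 difference was 1.64 over the members and -0.06 over all genes. In the CGE, 8 of the 8 members that reached 50 CPM were at least 2-fold higher in bin 6 (928 cells) than in bin 1 (345 cells), against 10.8% of 4078 genes, with medians of 1.42 and -0.05. No member was lower in either library, where 10.9% and 11.6% of all genes were. Summed progenitor markers (7 genes) went the other way, from 7765 to 625 CPM in the POA and from 10491 to 1042 CPM in the CGE.

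**Figure D1:**
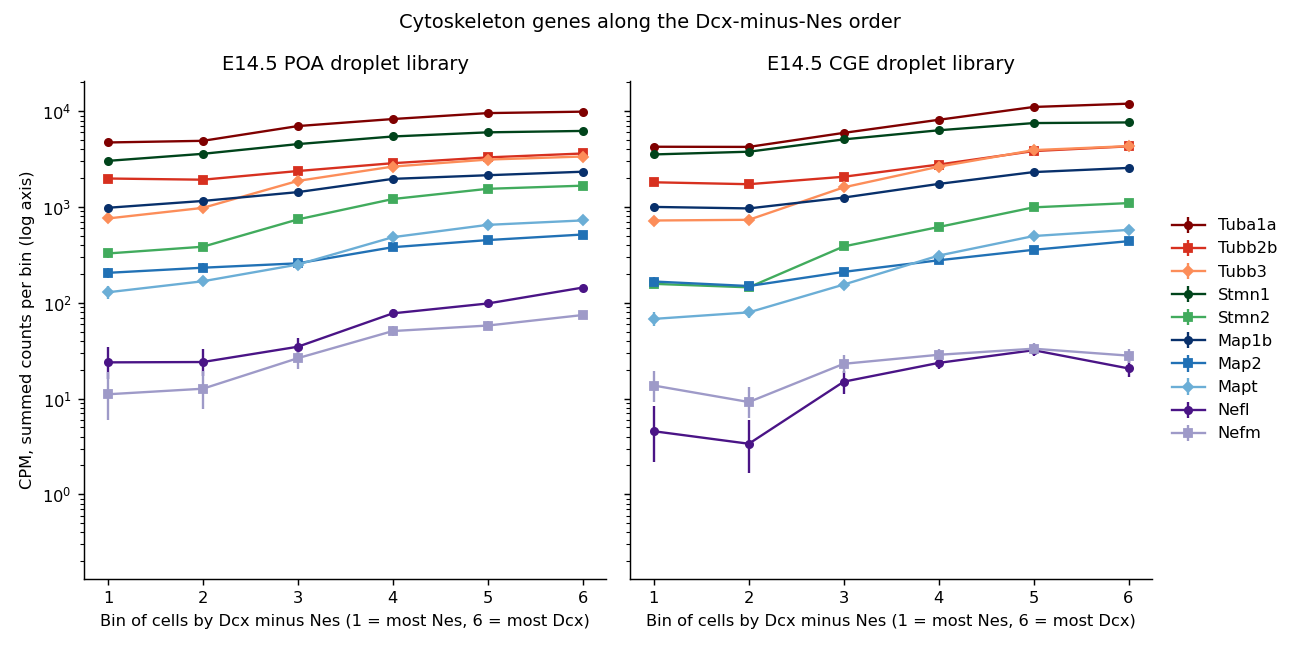
CPM of the 10 genes on a log axis in 6 bins of cells ordered by Dcx minus Nes, in the E14.5 POA (left) and CGE (right) droplet libraries, with exact Poisson 95% intervals as vertical lines. Levels are higher in bin 6 than in bin 2 for every gene in both libraries, and Nefl reaches 144 CPM in POA bin 6 but 20.6 CPM in CGE bin 6.

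Among the tubulins the neuron-specific beta-tubulin Tubb3 had the steepest profile. Over bins 1 to 6 it measured 759, 979, 1872, 2643, 3127 and 3365 CPM in the POA, and 723, 735, 1604, 2636, 3925 and 4320 CPM in the CGE. Its log2 differences between the end bins were 2.13 and 2.56, the level had doubled by bin 3 in both libraries, and the share of cells with a Tubb3 count was above 93% in every bin. Tuba1a, the main alpha-tubulin of young neurons, already stood at 4718 CPM in POA bin 1 and 4257 CPM in CGE bin 1 and reached 9896 and 11995 CPM in bin 6 (log2 differences of 1.07 and 1.49). Tubb2b, a beta-tubulin of migrating neurons, went from 1983 to 3619 CPM in the POA and from 1811 to 4297 CPM in the CGE. Its log2 difference of 0.86 in the POA made it the single member under 2-fold there, while the CGE difference was 1.24.

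Of the stathmins, Stmn1 and Stmn2 differed in their profile. Stmn1, which is also expressed in dividing cells, measured 3031 CPM in POA bin 1 and 6225 CPM in bin 6, and 3538 and 7637 CPM in the CGE (log2 differences of 1.04 and 1.11). Stmn2, the neuronal stathmin of growth cones, measured 327, 385, 742, 1211, 1548 and 1669 CPM over the POA bins and 158, 145, 388, 618, 992 and 1098 CPM over the CGE bins. The difference was 2.32 in the POA and 2.73 in the CGE, and the largest step fell between bins 2 and 3 in both. The POA differences of Tuba1a and Stmn1 sat at the 2-fold line, and over 10 alternative settings they ranged from 0.95 to 1.34 and from 0.83 to 1.12.

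Of the microtubule-associated proteins, Mapt showed the largest difference of the 10 genes in both libraries. Its levels were 129, 168, 251, 484, 651 and 724 CPM in the POA and 67.8, 79.3, 155, 311, 497 and 577 CPM in the CGE, with log2 differences of 2.40 and 2.91. The median CGE cell had no Mapt count in bins 1 to 3 and 447 CPM in bin 6. Map1b, an early growth-phase protein of axons, went from 981 to 2335 CPM in the POA and from 1002 to 2558 CPM in the CGE (1.24 and 1.34). Map2, the dendritic protein, went from 205 to 516 CPM in the POA and from 167 to 439 CPM in the CGE (1.29 and 1.35). For all 3 genes, and for the tubulins and stathmins, bins 1 and 2 of the CGE lay close together, with overlapping intervals for every one of them but Stmn1.

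Nefl and Nefm, the light and medium neurofilament subunits, were the members in which the regions parted. In the POA, Nefl measured 23.9, 24.0, 34.7, 77.5, 98.2 and 144 CPM over the bins, and Nefm 11.1, 12.7, 26.4, 50.6, 57.8 and 74.4 CPM (log2 differences of 2.18 and 2.00). In the CGE, Nefl never exceeded 32.0 CPM and Nefm 33.1 CPM, both in bin 5, and both stayed under the 50 CPM needed for a call. The share of cells with a Nefl count in bin 6 was 48.2% in the POA (exact binomial 95% interval 43.7 to 52.8) and 7.97% in the CGE (6.31 to 9.91). The same shares in the Nes-rich bin 1 were 14.8% and 2.32%, and for Nefm 7.69% and 7.83%. After each cell was thinned to 3200 counts the bin 6 shares were 24.1% of 485 POA cells and 4.38% of 753 CGE cells for Nefl, and 15.9% and 8.23% for Nefm. Median depth in bin 6 was 7533 counts in the POA and 4989 in the CGE.

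Set directly against each other, the Dcx-rich bins of the POA and CGE differed at least 2-fold in Nefl and Nefm and in none of the other 8 members, a comparison added after the values had been seen. Nefl was 2.33 and Nefm 1.15 higher in the POA on the log2 scale, where 2.90% of 3689 genes were at least 2-fold higher and 2.06% lower. Stmn2 was next (1669 against 1098 CPM, 0.60), and Tuba1a, Tubb2b, Tubb3, Stmn1 and Map1b were all lower in the POA by 0.13 to 0.36. Of the other cytoskeleton genes 2 of 61 were called, both higher in the POA, and these were Map6 (131 against 37.0 CPM), a stabiliser of microtubules, and Gap43 (940 against 357 CPM), a growth cone protein. Among markers of other cell types, those listed for Cajal-Retzius cells (3 genes, Trp73, Calb2 and Lhx5) summed to 124 CPM in POA and 14.3 CPM in CGE bin 6. Glutamatergic markers (6 genes) summed to 136 and 66.3 CPM. The study had removed clusters of both cell types, and the sums do not show which cells carried the counts. Without cells that had 3 or more counts of markers of other cell types Nefm was no longer called, while Nefl stayed above 2-fold in all 10 alternatives (1.02 to 2.75). The part of other cell types in the Nefl and Nefm values was not tested.

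The wider cytoskeleton lists followed the members in the embryo but not without exception. Along the POA order 29 of 60 list genes at 50 CPM were at least 2-fold higher in bin 6 and 4 were lower, against 10.9% of all genes in each direction. Along the CGE order 29 of 60 were higher and 3 lower, against 10.8% and 11.6% of all genes. The named list genes with the largest values were Ank3, the ankyrin of the axon initial segment, which went from 62.2 to 408 CPM in the POA and from 24.6 to 237 CPM in the CGE, and Ina, the intermediate filament internexin, which went from 86.9 to 517 CPM and from 35.1 to 283 CPM. The genes lower in bin 6 were led by Vim, the intermediate filament of radial glia, at 1299 against 188 CPM in the POA and 1041 against 155 CPM in the CGE. Tuba1b, a tubulin of dividing cells, was also lower, at 1387 against 583 CPM in the POA and 1681 against 720 CPM in the CGE.

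The 10 profiles were alike over the 12 bins of both libraries, and since the bins of a region share its library, their correlations are descriptive. Pearson's r of log2 levels was 0.99 between Tuba1a and Tubb3 and 0.99 between Stmn2 and Mapt, and it was lowest between Stmn1 and Nefl, at 0.47. Among 4587 genes the closest profiles were those of Ap3b2, Dpysl3 and Podxl2 for Tubb3, of Cnih2, Prkar1b and Prr36 for Mapt, of Scn3b, Stmn3 and Trp53i11 for Stmn2, and of Celf6, Zfp329 and Nap1l5 for Nefl (r of 0.97 to 1.00).

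On the C1 chips, the Hmx3-lineage POA cells had far higher levels of most members than the dye-labelled cells born at the ventricle. Of the 8 members that reached 50 CPM, 6 were at least 2-fold higher in tdTOM+/GFP+ cells (418) than in FlashTag+ cells (352), against 9.76% of 5214 genes, and none was lower, against 14.8%. The median log2 difference was 1.71 over the members and -0.03 over all genes. Progenitor markers summed to 6197 CPM in FlashTag+ and 370 CPM in tdTOM+/GFP+ cells. FlashTag+ and tdTOM+/GFP+ cells were separate sorts from different mouse lines on separate chips, so sort, line and chip cannot be told apart.

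Mapt was highest in ratio, at 92.4 CPM in FlashTag+ cells (blocks 52.2 to 198) and 1144 CPM in tdTOM+/GFP+ cells (1057 to 1283), a log2 difference of 3.49. Stmn2 measured 178 CPM (128 to 321) and 1554 CPM (1373 to 1631), a difference of 3.05. The FlashTag+ sums of both leaned on single cells, since 1 cell held 24.3% of the Mapt and 18.9% of the Stmn2 counts and the median FlashTag+ cell had neither. Stmn1 measured 186 CPM (143 to 212) and 1200 CPM (1079 to 1274), a difference of 2.63, where the POA droplet order gave 1.04.

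Tubb3 stood at 448 and 1695 CPM (1.90), Map1b at 1378 and 3991 CPM (1.53) and Map2 at 486 and 1077 CPM (1.13). In none of these 6 genes did the chip blocks of the sorts overlap. Tuba1a (2384 and 3136 CPM, 0.39) and Tubb2b (417 and 497 CPM, 0.25) were under 2-fold. The blocks of Tuba1a were apart (2128 to 2492 and 3098 to 3221) and those of Tubb2b overlapped (315 to 540 and 472 to 514). The medians of single cells for Tubb3 were 24.6 CPM in FlashTag+ and 1644 CPM in tdTOM+/GFP+ cells. Nefl (4.83 and 32.3 CPM) and Nefm (14.53 and 38.1 CPM) stayed under 50 CPM, and counts were found in 3.41% and 22.7% of cells for Nefl and in 7.67% and 25.1% for Nefm.

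**Figure D2:**
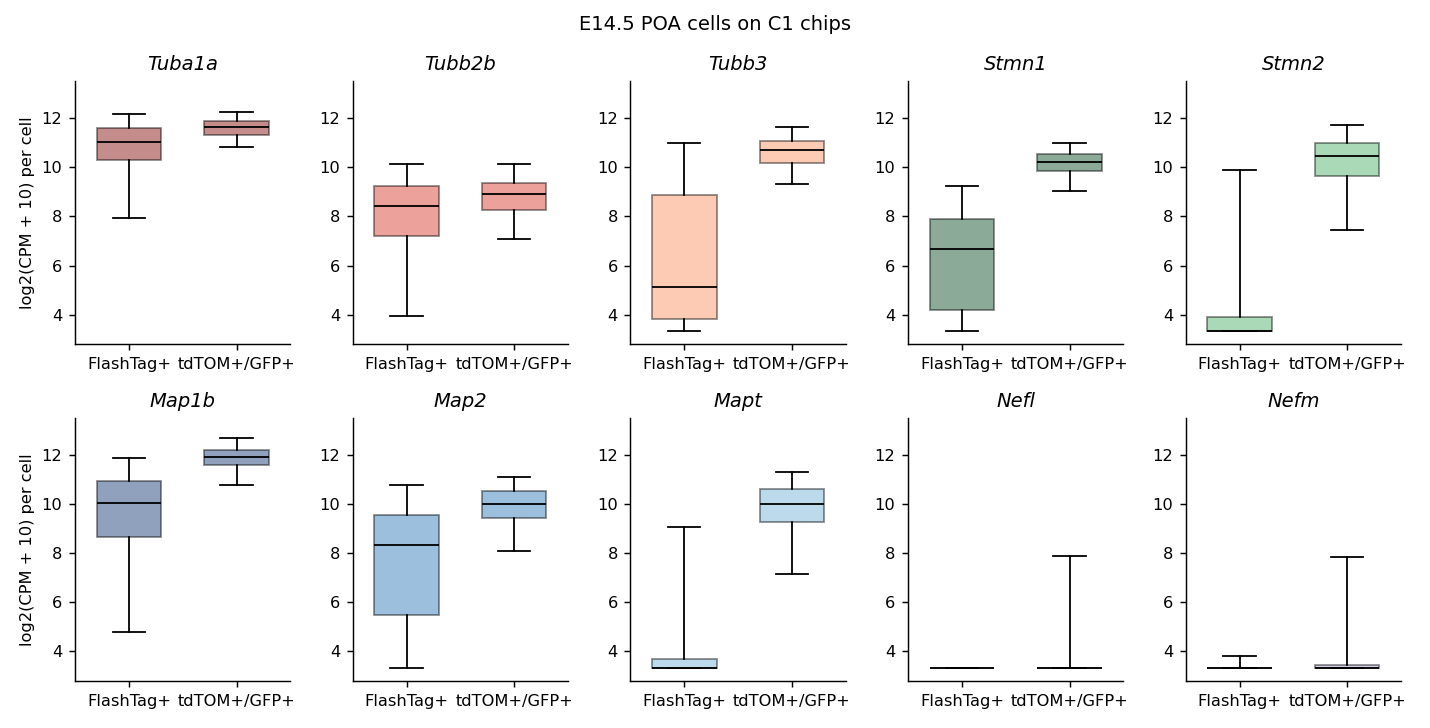
Single-cell levels, log2(CPM + 10), of the 10 genes in FlashTag+ (352) and tdTOM+/GFP+ (418) cells of the E14.5 POA. Boxes span the quartiles with the median as a line and whiskers the percentiles 5 to 95. Stmn1, Stmn2 and Mapt boxes do not overlap between the sorts, whereas those of Tuba1a and Tubb2b do, and most cells have no Nefl or Nefm.

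Within each sort the same Dcx-minus-Nes order, cut into 3 groups, showed where the remaining spread lay. Among FlashTag+ cells the Dcx-rich group had 904 CPM of Tubb3, 480 CPM of Stmn2 and 223 CPM of Mapt. The middle group had 314, 44.5 and 29.7 CPM, and the Nes-rich group 140, 22.4 and 30.3 CPM. In the Dcx-rich group 1 cell held 21.7% of the Stmn2 and 31.2% of the Mapt counts. The median cell of that group had 3.07 CPM of Stmn2 and no Mapt. Its chip blocks ran from 293 to 1362 CPM for Stmn2 and from 96.2 to 772 CPM for Mapt. In tdTOM+/GFP+ cells the 3 groups were close for all members but Nefl and Nefm, with Tubb3 at 1637, 1665 and 1787 CPM and Map1b at 3987, 4007 and 3978 CPM. Nefl measured 46.8, 16.0 and 33.3 CPM and Nefm 29.4, 22.6 and 63.3 CPM, with counts in 19.4% to 32.4% of cells. Among the 62 list genes at 50 CPM, 25 were higher in tdTOM+/GFP+ cells and 3 lower, against 9.76% and 14.8% of all genes. Ina (1248 against 108 CPM), Gap43 (839 against 94.1 CPM) and Ank3 (551 against 83.9 CPM) led the former, and Vim (150 against 2152 CPM), Pfn1 (110 against 335 CPM) and Tuba1b (202 against 420 CPM) made up the latter.

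Between the embryo and the mature cortex, the cytoskeleton genes of tdTOM+/GFP+ cells were mostly lower. Over the 11449 genes present in the E14.5, P15 and P30 tables, 5 of 6 members at 50 CPM were at least 2-fold lower in P15 core NGCs than in E14.5 cells, against 24.9% of 5548 genes, and none was higher, against 23.8%. At P30, 6 of 8 members were lower, against 23.1% of 6234 genes, and none higher, against 24.3%. Median log2 differences were -1.81 and -2.45 over the members and -0.14 and -0.05 over all genes. All tdTOM+/GFP+ cells were taken at E14.5, whereas the postnatal cells were only those labelled Dock5 or Lsp1. Age, tissue, dissociation, chip and this choice of cells cannot be told apart here, and both contrasts use the same E14.5 cells.

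**Figure D3:**
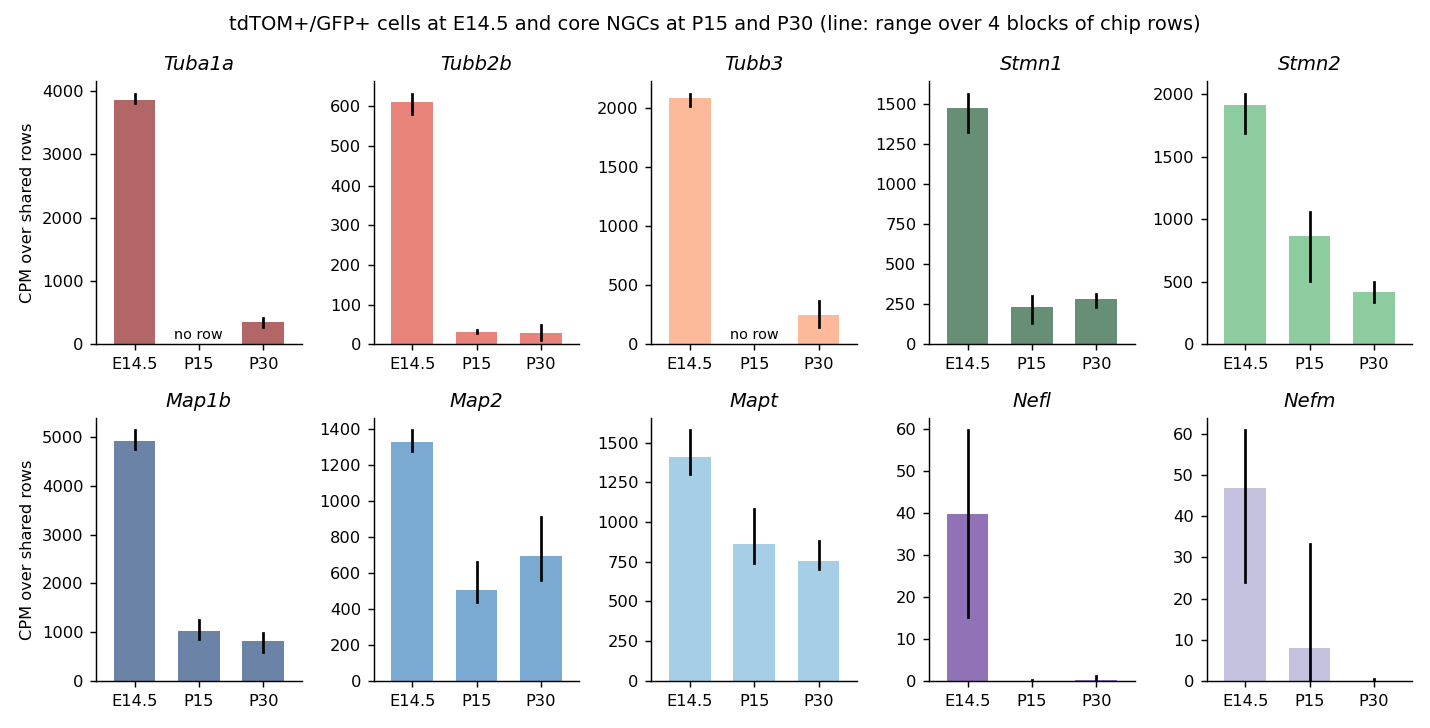
CPM over genes shared by the E14.5, P15 and P30 tables for tdTOM+/GFP+ cells at E14.5 (418) and core NGCs at P15 (69) and P30 (111), with lines for the range over 4 blocks of chip rows. Tubb2b stands at 611 CPM at E14.5 and under 30 CPM at both later ages, whereas Mapt, at 1408, 860 and 755 CPM, keeps the largest part of its embryonic level at both later ages. Tuba1a and Tubb3 were not in the P15 table.

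The tubulins had the largest differences. Tubb2b measured 611 CPM at E14.5 (blocks 580 to 633), 29.8 CPM at P15 (27.6 to 35.6) and 28.1 CPM at P30 (10.5 to 48.8), which is -3.96 and -4.03 from E14.5 on the log2 scale. Tuba1a measured 3860 CPM at E14.5 and 355 CPM at P30 (-3.40), and Tubb3 2086 and 248 CPM (-3.02). A Tubb2b count was found in 99.8% of cells at E14.5, 49.3% at P15 and 24.3% at P30.

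Stmn1 measured 1477, 232 and 282 CPM at the 3 ages (-2.62 and -2.35 from E14.5). Stmn2 measured 1913 CPM (1689 to 2006), 865 CPM (509 to 1055) and 421 CPM (342 to 497). It was the single member of 5 that was called between the postnatal ages, at -1.02 from P15 to P30, against 2.82% of 5105 genes lower and 4.11% higher, and it was under 2-fold in 5 of 10 alternatives.

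Map1b measured 4912, 1032 and 827 CPM (-2.24 and -2.56). Map2 measured 1326 CPM at E14.5, 505 CPM at P15 and 692 CPM at P30, so that it was called at P15 (-1.38) but not at P30 (-0.93). Mapt was under 2-fold at both ages, with 1408, 860 and 755 CPM (-0.70 and -0.89). Between P15 and P30 Map2 differed by 0.45 and Mapt by -0.19. Nefl was at 39.7 CPM at E14.5, 0.0498 CPM at P15 and 0.334 CPM at P30, and Nefm at 46.9, 7.97 and 0.0836 CPM. All 160 Nefm counts of the P15 core NGCs came from 1 cell.

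Other cytoskeleton genes were split in direction. At P30, 9 of 69 list genes were at least 2-fold higher than at E14.5 and 27 were lower, against 24.3% and 23.1% of all genes. Of the 9 lists, the actin and growth cone list had the most lower genes, 10 of 12. Dpysl3, a collapsin response mediator of growth cones, stood at 2596 CPM at E14.5, 56.3 CPM at P15 and 33.7 CPM at P30. Tubb5, the broadly used beta-tubulin, stood at 3612 and 332 CPM at E14.5 and P15, and Marcks, an actin-binding protein, at 1642 and 63.9 CPM at E14.5 and P30. In the other direction Tuba4a went from 0.0958 CPM to 236 CPM at P15 and 144 CPM at P30. Map1a, the mature relative of Map1b, went from 59.8 to 582 and 488 CPM, and Map7 from 2.67 to 93.1 and 98.7 CPM.

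Within the cortex, Map1b was the member that set core NGCs apart from core non-NGCs at both ages. It measured 1024 CPM in core NGCs (blocks 845 to 1248) and 2229 CPM in core non-NGCs (1597 to 2542) at P15, and 682 CPM (498 to 809) and 1815 CPM (1771 to 1863) at P30. The blocks did not overlap at either age, and the differences were -1.11 and -1.40. At P15, 2 of 6 members were at least 2-fold lower in core NGCs, Map1b and Tubb2b, against 6.48% of 5049 genes, and none was higher, against 6.02%. At P30, 1 of 7 members was lower, against 6.19% of 5042 genes, and none higher, against 6.49%. Since the labels were made from the same expression values, these are descriptions of the labelled groups. CPM in the subtype comparisons uses all genes measured at that age, and these gene sets differ, so the levels do not compare P15 with P30. Over the genes shared with E14.5 and P15, Map1b in P30 core NGCs was 827 CPM in place of 682 CPM.

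Map1b was higher in the Vip, Sncg and other Lamp5 classes of core non-NGC than in the NGC groups, but not in every smaller subtype. At P30 it stood at 1534 CPM in Vip, 2127 CPM in Sncg and 1852 CPM in the other Lamp5 cells, against 708 CPM in Dock5 and 631 CPM in Lsp1 cells. At P15 the levels were 2064, 2873 and 2303 CPM against 1009 and 1040 CPM. Within the P15 Vip class, the 11 cells labelled Vip Igfbp6 Pltp had 1185 CPM, inside the block range of core NGCs, and the 13 labelled Vip Ptprt Pkp2 had 2971 CPM. Cells labelled Lsp1 but without tdTOM had 1076 CPM at P15 and 681 CPM at P30. The 12 tdTOM+ cells labelled Lamp5 Ntn1 Npy2r at P30 had 1257 CPM. With inconclusive cells included, the P15 difference between the whole sorts shrank to -0.30 and that at P30 to -0.83, and tdTOM+ inconclusive cells had 1824 CPM at P15 and 873 CPM at P30.

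Tubb2b measured 29.6 CPM in core NGCs and 80.2 CPM in core non-NGCs at P15, but 23.1 and 21.5 CPM at P30. The P15 blocks overlapped, at 27.4 to 35.3 and 28.3 to 133 CPM. Among P15 classes it was highest in the 10 Sncg cells, at 139 CPM. Stmn1 did not reach 2-fold, with 230 and 262 CPM at P15 and 232 and 124 CPM at P30 (0.85). The remaining members lay within 0.55 of each other in both comparisons, namely Stmn2, Map2 and Mapt at P15 and P30 and Tuba1a and Tubb3 at P30. Nefl counts at P15 were found in 12.4% of core non-NGCs (11 of 89) and 1.45% of core NGCs (1 of 69). Of those 11 cells 10 were labelled Vip, the label of 63 of the 89. At P30 the shares were close, at 4.17% (4 of 96) and 4.50% (5 of 111). A single cell held 42.4% of the Nefl counts of Vip cells at P15 and 50% at P30.

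**Figure D4:**
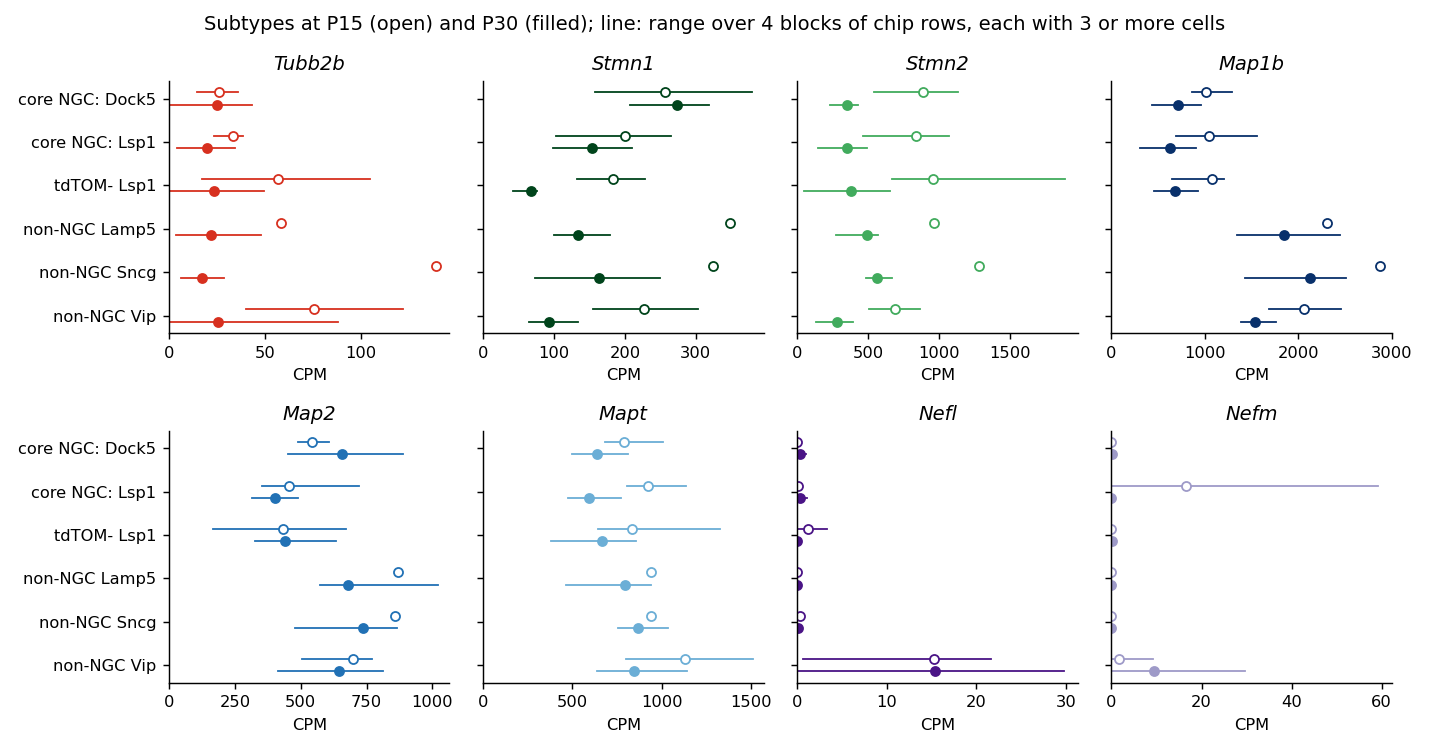
CPM of 8 members in labelled subtypes at P15 (open circles) and P30 (filled circles), with lines for the range over 4 blocks of chip rows where each block held 3 or more cells. Totals rest on a different gene set at each age, so levels are to be compared within an age only. Map1b is at 1534 CPM or more in the 3 non-NGC classes drawn and at 1076 CPM or less in the Dock5 and Lsp1 groups. Nefl is highest in Vip cells, where 1 cell holds 42.4% of its counts at P15 and 50% at P30.

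Other cytoskeleton genes that differed between core NGCs and core non-NGCs are read against the shares of all genes given above. At P15, 1 of 59 list genes was higher (Map7, 92.3 against 38.7 CPM) and 4 were lower, led by Dpysl3 (55.8 against 277 CPM), the dynein subunit Dync1i1 (165 against 401 CPM) and Gap43 (168 against 358 CPM). At P30, 1 of 64 was higher (Tubb4b, 85.0 against 33.7 CPM) and 2 were lower, Marcks (52.7 against 396 CPM) and Svbp (10.8 against 59.5 CPM).

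Between tdTOM+ cells of the NGC subtypes no member differed at least 2-fold on the chips, though Stmn1 at P30 did (1.16) once tdTOM- cells with these labels were added. None of 5 members was called at P15, where 7.31% of 5073 genes were higher and 6.90% lower in Dock5 (36 cells) than in Lsp1 (33 cells). None of 7 was called at P30, where 6.70% of 5197 genes were higher and 6.93% lower in Dock5 (76 cells) than in Lsp1 (35 cells). The largest P30 differences were those of Stmn1, at 273 CPM in Dock5 (blocks 207 to 319) and 153 CPM in Lsp1 (98.9 to 211), a difference of 0.80, and of Map2, at 657 CPM (452 to 890) and 401 CPM (316 to 490), a difference of 0.70. At P15 the same genes differed by 0.35 and 0.24. Map1b was level at both ages (-0.04 and 0.16). Of 60 list genes, 0 were higher and 2 lower in Dock5 at P15, and 2 were higher and 2 lower at P30. Dync1i1 (176 against 44.3 CPM) and Camsap3, a binder of microtubule minus ends (76.2 against 31.9 CPM), were higher at P30. Ttl, the tubulin tyrosine ligase, was lower at P15 (21.6 against 95.9 CPM), and Gap43 was lower in Dock5 at P15 (96.5 against 246 CPM) and P30 (101 against 255 CPM), and Marcks was lower at P30 (26.0 against 105 CPM).

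In patch-seq cells, 1 of 10 members was at least 2-fold higher in Dock5 than in Lsp1, against 8.87% of 4770 genes, and 3 were lower, against 7.99%. Stmn1 was higher in Dock5, at 1003 against 461 CPM (1.10), with single-cell medians of 980 and 360 CPM. Map1b was lower (698 against 1419 CPM, -1.01), as were Nefl (111 against 293 CPM, -1.33) and Nefm (72.1 against 299 CPM, -1.91). A single deep Lsp1 cell held 30.0% of all Lsp1 counts, and single cells held 54.0% of the Lsp1 and 31.9% of the Dock5 counts of Nefl and 61.4% and 41.8% of those of Nefm. Single-cell medians were 15.2 and 13.8 CPM for Nefl, 16.8 and 5.51 CPM for Nefm, and 683 and 905 CPM for Map1b. Without the deepest cell of each subtype Stmn1 was at 1.00 and Nefm at -1.57, and Map1b (-0.81) and Nefl (-0.88) were under 2-fold.

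Neurofilament counts were common in patch-seq cells and rare in sorted cortical cells, which also differ in age and in the layers sampled. Nefl was detected in 14 of 20 Dock5 (70.0%) and 19 of 27 Lsp1 cells (70.4%), against 4.50% of core NGCs at P30. After thinning the Nefl shares were 58.8% of 17 Dock5 and 60.0% of 25 Lsp1 cells and 3.96% of 101 P30 core NGCs. Summed oligodendrocyte lineage and glutamatergic markers were also higher in patch-seq cells, though over more genes than in P30 core NGCs. Oligodendrocyte lineage markers (5 of 5 genes present) summed to 1253 CPM in Dock5 and 5951 CPM in Lsp1 cells, against 25.5 CPM in P30 core NGCs (3 of the 5 genes with an entry). Glutamatergic markers (6 genes) summed to 23.6 and 244 CPM, against 1.66 CPM in P30 core NGCs (3 of the 6 with an entry). Microglial markers (4 genes) summed to 117 and 247 CPM in the patch-seq subtypes and are given without a sorted value. The part of these markers in the neurofilament values was not tested.

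**Figure D5:**
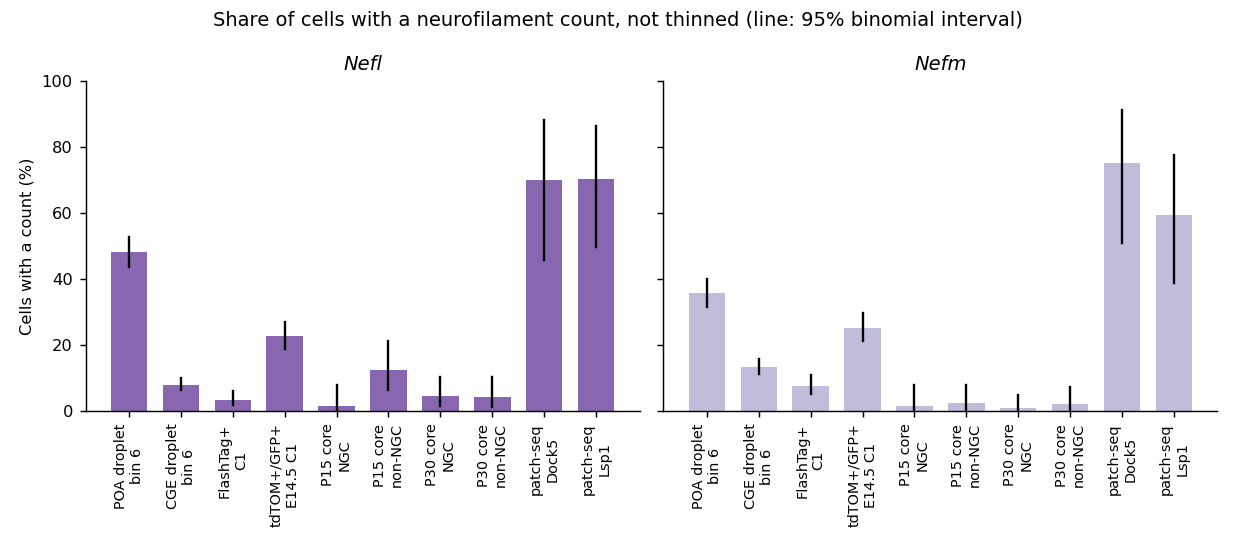
Share of cells (%) with at least 1 Nefl (left) or Nefm (right) count in 10 groups, without thinning, and exact binomial 95% intervals as lines. POA bin 6 (48.2% for Nefl) and the patch-seq subtypes (70.0% and 70.4%) stand above the sorted P15 and P30 groups, where no share exceeds 12.4%. Depth differs between the platforms.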

How the data were processed

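Single-cell gene counts were used for 7 collections, and each collection was treated as 1 sample. The authors made the deposited counts with Cell Ranger for the droplet libraries (mouse build mm10) and, for chip and patch-seq cells, with STAR on GRCm38, UMI-tools for the removal of duplicate molecular identifiers, and counting of uniquely mapped exonic reads by strand. They removed clusters of other cell types, cells with few genes or much mitochondrial RNA, and chip wells seen to be empty or doubly filled, and no further doublet call was made here. Chip counts rest on short molecular identifiers, which can run out for very abundant transcripts and lower their counts. The P15 and P30 tables hold different gene sets, so ages were compared over shared genes, in totals of those genes alone. All cells were mapped to a label, and 0 columns of cells were left out.

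Counts were summed per group and scaled to CPM. Differences were taken as log2 after adding 10 CPM, with no test, in Python 3.11.15 with numpy 2.4.6, pandas 2.3.3, scipy 1.17.1 and matplotlib 3.10.9. Intervals are exact Poisson for sums and Clopper-Pearson for shares of cells, at 95%. For shares, cells were thinned to 3200 counts (droplet), 135300 (chips) and 101700 (patch-seq), and shallower cells were left out. The droplet order was log2 of Dcx minus log2 of Nes in scaled counts, with cells below 0 split at their median, cells at 0 as bin 3, and cells above 0 split into 3 bins. Cells without either gene scored 0 and so fell in bin 3. The regional markers of the droplet libraries were chosen after seeing the data. Members and lists were chosen with earlier results of these data known. Besides the members, up to 3 list genes with the largest called difference in each direction were named, and the 3 genes with the closest profile over 12 bins. On simulated counts with 200 genes changed, the 2-fold call recovered 99.5% of them among 18142 genes for the POA order and 100% among 17465 genes for the P30 core comparison, with 0 of 3387 and 0 of 4203 unchanged genes called. These counts had Poisson error only, at the summed totals of the groups, and every planted change lay past the 2-fold line. The simulation therefore checks the calculation and cannot show how calls hold up to spread between cells, chips or animals.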

Additional observations from a re-analysis of the deposited data

Results flagged for a closer look

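Tubb2b differed between core NGCs and core non-NGCs by -1.19 on the log2 scale at P15 and by 0.07 at P30. The sign differs, but the P30 value shows no direction. The P15 levels were 29.6 and 80.2 CPM and the P30 levels 23.1 (95% interval 21.4 to 25.0) and 21.5 CPM (19.8 to 23.5). Alternatives at P30 ranged from -0.45 to 0.31. The difference between the ages was not tested, since each age is 1 sample.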

How the results depend on the processing

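Of 117 recounts of called members under alternative settings, 98 stayed within 1.5 times the reported count and 19 did not. Every recount of both droplet orders, of tdTOM+/GFP+ against FlashTag+ cells, of both postnatal ages against E14.5 and of Dock5 against Lsp1 at P15 stayed within it. Between the Dcx-rich bins of the POA and CGE, 1 member in place of 2 was called with 100 CPM added, with the mean of single cells, and without cells with counts of other cell types. Between core NGCs and core non-NGCs at P15, 1 in place of 2 was called with 100 CPM added, and 0 on chip rows 1 to 20 or over the whole sorts, where the log2 difference of Map7 turned to -0.092 from 1.07. At P30, 0 in place of 1 was called over the whole sorts. Between Dock5 and Lsp1 at P30, 1 (Stmn1) in place of 0 was called with cells of both sorts. Between P30 and P15, 0 in place of 1 was called with 100 CPM added, the mean of single cells, thinned cells, without the 5% deepest cells and on chip rows 1 to 20, and 2 over the whole sorts. In patch-seq cells, 4 calls became 1 with 100 CPM added and without the 5% deepest cells, and 2 with the mean of single cells, thinned cells or the deepest cell of each subtype left out. The cause of these shifts was not tested. The share of all genes called moved by over 1.5 times in 19 of 48 recounts, 17 of them with no filter on low genes. The both-sorts and deepest-cell settings and the comparison of Dcx-rich bins were chosen after seeing the data. No paired analysis was possible because the labels name no replicate or animal and no result comes from a test. With 1 sample a group, the spread between animals could not be measured. Genes under 50 CPM, which included Nefl and Nefm in most groups outside patch-seq, often rested on few counts or on a minority of cells.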

Other observations

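Of the droplet cells in bin 3, 207 of 314 in the POA and 449 of 641 in the CGE had neither a Dcx nor a Nes count. In these cells Tubb3 stood at 1947 CPM in the POA and 1754 CPM in the CGE, Stmn2 at 730 and 427 CPM, Mapt at 237 and 156 CPM, and Nefl at 38.8 and 12.8 CPM. All 8 values lay between those of bins 2 and 4 of the same library.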
